A study of Mus musculus with 12 samples.

Results

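Most promoters that are dense in CpG dinucleotides carry almost no DNA methylation, and the 421 promoters described here are the exceptions in mouse beta cells. Starts were taken from the Ensembl-canonical transcript of each of 20621 autosomal protein-coding genes (GENCODE, build mm39), and the window ran 500 bp to each side. A promoter was called CpG-rich where over 30 CpGs were listed at both ages and each of the 4 deposited pools held at least 200 reads, which gave 12399 promoters. The 421 members (3.40%) were those with a methylation level, the share of reads called methylated over the window, of at least 20% in both pools of adult cells. They were thus chosen by their P60 levels, and those levels are given as a description.

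Mice carried Myt1cCre, Ngn3nCre, Rosa26eYFP and InsApple. In this design the 2 parts of a split Cre recombinase are driven from Myt1 and Neurog3 (Ngn3), so that eYFP marks descendants of progenitors that expressed both genes (M+N+, eYFP+), and the remaining beta cells are eYFP- (M-N+). The sample titles write this marker as eGFP. Apple, driven with insulin, and eYFP were used to sort beta cells from islets at postnatal day 2 (P2) or at about 2 months (P60), and each library combined sorted cells of several mice. Whole-genome bisulfite sequencing gave 12 libraries, 2 per subtype at P2 and 4 per subtype at P60. In each group the odd-numbered replicates were labelled female and the even-numbered ones male. Methylated and unmethylated read counts were deposited for each subtype and age as 1 pool, so levels have counting error but no replicate error, while regions of low methylation (HMRs) were deposited for each library. The counts are given per CpG, so a read that covers several CpGs is counted at each of them.

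CpG islands at promoters are normally protected from DNA methylation in every cell type. Known exceptions are genes of the germ line, whose promoters are methylated in the early embryo and stay silent in body tissues, and imprinted genes, where the copy from either the mother or the father is methylated. A promoter read at an intermediate level in a sorted population may be methylated on some cells, on some gene copies or at some of its CpGs, and a level alone cannot tell these apart.

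The 200 bases before the start are shown for 6 members, read 5′ to 3′ on the strand of the gene from the mm39 genome, with every CpG in capitals. Rpl10l (chr12:66331182-66331381, minus strand) and Dazl (chr17:50600665-50600864, minus strand) had the highest P2 levels among members on a list of germline and meiosis genes. Nap1l5 (chr6:58884062-58884261, minus strand) and Slc38a4 (chr15:96953850-96954049, minus strand) had the highest among members on a list of imprinted genes. Tmem154 (chr3:84573299-84573498, plus strand) gained the most methylation from P2 to P60, and Tescl (chr7:24033362-24033561, minus strand) lost the most.
Rpl10l: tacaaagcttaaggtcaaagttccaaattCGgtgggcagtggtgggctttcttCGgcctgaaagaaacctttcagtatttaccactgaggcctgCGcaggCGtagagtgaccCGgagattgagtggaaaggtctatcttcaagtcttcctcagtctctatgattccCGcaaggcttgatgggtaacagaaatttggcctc
Dazl: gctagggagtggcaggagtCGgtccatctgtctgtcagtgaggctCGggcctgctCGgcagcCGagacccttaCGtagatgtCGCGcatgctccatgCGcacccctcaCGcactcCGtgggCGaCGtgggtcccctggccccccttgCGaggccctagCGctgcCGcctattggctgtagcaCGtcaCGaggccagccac
Nap1l5: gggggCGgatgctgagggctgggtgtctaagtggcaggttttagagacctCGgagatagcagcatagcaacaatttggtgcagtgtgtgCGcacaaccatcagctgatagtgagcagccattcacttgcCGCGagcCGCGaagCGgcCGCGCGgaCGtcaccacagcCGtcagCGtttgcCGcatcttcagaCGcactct
Slc38a4: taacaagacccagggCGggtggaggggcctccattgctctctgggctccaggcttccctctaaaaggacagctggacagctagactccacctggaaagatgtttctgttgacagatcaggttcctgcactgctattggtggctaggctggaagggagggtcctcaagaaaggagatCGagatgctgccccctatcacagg
Tmem154: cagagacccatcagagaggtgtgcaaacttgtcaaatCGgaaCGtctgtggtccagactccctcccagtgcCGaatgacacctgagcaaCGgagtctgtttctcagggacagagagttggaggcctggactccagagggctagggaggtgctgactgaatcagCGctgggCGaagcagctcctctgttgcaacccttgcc
Tescl: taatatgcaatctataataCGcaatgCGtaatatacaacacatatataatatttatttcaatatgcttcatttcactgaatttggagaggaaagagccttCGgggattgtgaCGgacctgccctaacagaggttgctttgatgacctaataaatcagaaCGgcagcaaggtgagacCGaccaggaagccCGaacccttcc
These stretches held 17 CpGs in Dazl and 16 in Nap1l5, but 2 in Slc38a4, 6 each in Rpl10l and Tmem154 and 7 in Tescl. Over the 200 bases of Dazl, 98.1% and 96.8% of reads were methylated in the P2 eYFP- and eYFP+ pools, from 423 and 282 reads. Over those of Tmem154 the levels were 10.3% and 9.38% at P2 and 55.0% and 48.2% at P60.

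Several properties of the libraries bear on what follows. The names of the 4 P2 files share a code of their own, and those of the 8 P60 files carry a further pair of codes, one for replicates 1 and 2 and the other for replicates 3 and 4. What the codes stand for is not stated, and age and code cannot be told apart. At P2 the X chromosome went against the sex labels of the eYFP- libraries. Of 254 X-linked HMRs present in all P60 libraries labelled male and in none labelled female, replicate 1, labelled female, overlapped 92.5%, and replicate 2, labelled male, overlapped 13.4%, against 12.99% and 84.3% for the female and male eYFP+ libraries. The pools are named B1 and B2 with no subtype, and B1 was taken as eYFP- and B2 as eYFP+ because each of the 12 libraries shared more HMR sequence with that pool, of which it is a part, than with the other. The direction of each difference between subtypes in pooled levels rests on this assignment. Mitochondrial DNA, which gives the level read where methylation is expected to be absent, was at 0.379% to 0.610%. The median member held 953 and 927 reads in the P2 eYFP- and eYFP+ pools and 2153 and 2108 reads at P60. Among 15 CpG-rich promoters of beta-cell identity and secretion genes none was a member, and their median P60 level was 0.672% with a highest of 11.8%. None of the 14 housekeeping genes or of the 20 CpG-rich disallowed genes, which beta cells keep silent, was a member either. At the 3.40% of all CpG-rich promoters, lists this short would hold few members or none. Of 13 CpG-rich promoters of markers of other pancreatic cell types, 2 were members (Krt19 and Pdgfrb), and the median of the others was 1.84%.

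Members ranged widely in level. At P60 179 lay between 20% and 40%, 79 between 40% and 60%, 77 between 60% and 80%, and 86 at 80% or more, by the mean of both pools. The median member stood at 46.6% at P60 and 37.3% at P2. In the 11978 other CpG-rich promoters the medians were 1.27% and 1.34%, and 81.4% of them were under 5% in both P60 pools. Close to the threshold, Prkag3, a muscle subunit of the AMP-activated kinase, had 20.1% and 21.6% in the P60 eYFP- and eYFP+ pools. Just outside were Wfikkn2, at 21.9% and 19.98%, and Vcan, at 20.5% and 19.95%.

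The members were at the sparse end of the CpG-rich promoters. They held a median of 38 CpGs in the window, against 66 in the others, and their observed-to-expected CpG ratio had a median of 0.525 against 0.751. Their GC content was 55.9% against 59.9%. The rule set a minimum of CpGs but no maximum, and the members ran up to 100 CpGs, in Igf2r. A gene with a single exon, as retrocopies often are, stood at 59 members (14.0%) against 2.73% of the others, and among members at 80% or more at P60 the share was 24.4%. The start lay inside another gene in 18.3% of members and 15.3% of the others. Chromosome 18 had the highest share, with 27 of 348 CpG-rich promoters (7.76%), of which 19 were clustered protocadherins. In 13 pairs of neighbouring members, among them Peg3 and Usp29, Sgce and Peg10, and Pcdha4 and Pcdha4b, the windows overlapped, so these pairs were largely read from the same CpGs. The windows of Sfi1 and Tmem267 were read at over 3 times the median number of reads per CpG (1054 reads per CpG for Sfi1 in the mean of the P2 pools), and the number of members was 419 without such windows.

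**Figure D1:**
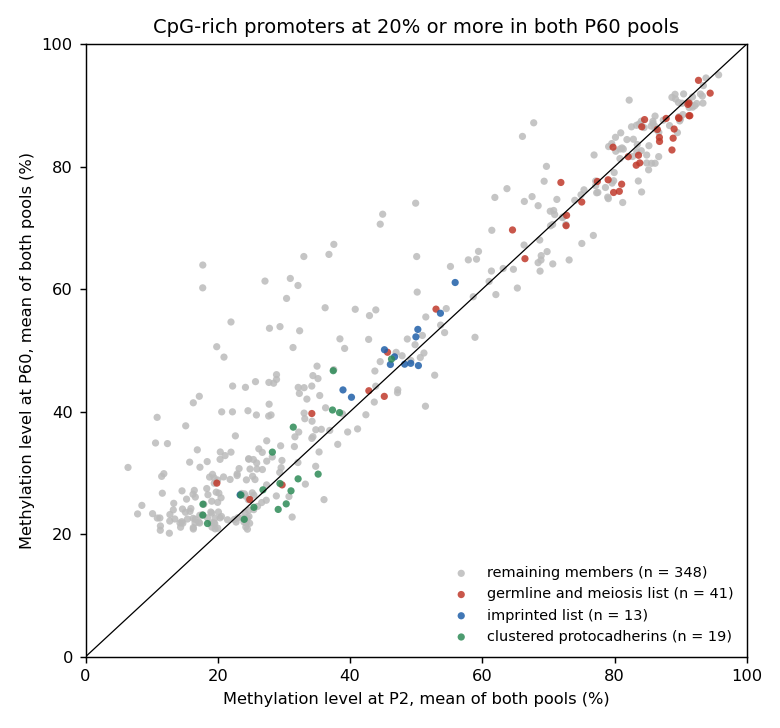
Methylation level of each of the 421 members at P2 (x axis, %) and P60 (y axis, %), each the mean of the eYFP- and eYFP+ pools, coloured by gene list, with the line of equal levels. Germline and meiosis genes lie high on the line, imprinted genes near its middle, protocadherins low, and the points far above the line, up to 46.2 points, are all among the remaining members.

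High methylation was a feature of germline genes. Of 58 CpG-rich promoters on the germline and meiosis list, 41 (70.7%) were members, against 3.40% of all CpG-rich promoters, and 33 of the 41 were at 60% or more at P60. Their median level was 82.1% at P2 and 80.6% at P60. Rpl10l, a testis ribosomal protein gene, was read at 95.8% and 93.2% in the P2 eYFP- and eYFP+ pools and at 91.5% and 92.4% at P60. Dazl, an RNA-binding protein of germ cells, was at 93.2%, 92.1%, 94.2% and 93.9% in the same order. Both were near saturation in each pool. Spo11, which makes the DNA breaks of meiosis, was at 91.0% and 91.5% at P2 and at 87.2% and 89.4% at P60. Sohlh2, a germ-cell transcription factor, was at 90.6%, 91.9%, 91.2% and 89.6%. Mov10l1, a helicase of the piRNA pathway, was at 88.6%, 89.1%, 84.9% and 84.3%. The others of the 12 with the highest P2 level (Tex19.1, Dpep3, Asz1, Pabpc6, Hormad1, Fkbp6 and Brdt) were between 82.1% and 92.3% in each pool. In 33 of the 41, no library had an HMR in the window at P2. The 17 germline promoters that were not members had a median of 3.47% at P60 and a highest level of 21.0%, and the 41 members ran from 25.7% to 94.1%.

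The germline list did not cover the highest levels. The member with the highest P60 level was Wdr88, at 96.0% and 95.5% at P2 and 96.1% and 93.8% at P60. It was followed by Taf7l2, a single-exon paralogue of a transcription factor subunit, at 94.1% and 94.8% at P60, Dazl, the tubulin gene Tuba3b (92.5% and 93.9%) and Rpl10l. Ppp1r14bl (92.2% and 91.5%), the protease gene Tmprss12 (91.8% and 91.9%) and Tenm3, a cell adhesion protein (91.8% and 91.7%), completed the 8 highest. The 8 promoters were within 5 points of their P2 level in each pool. Their windows overlapped no HMR in any library.

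A methylated canonical start did not always leave a gene without an unmethylated start. In 33 members (7.84%) the same gene had another annotated start over 1 kb away whose window was CpG-rich and under 5% in both P60 pools, and this was the case in 8.09% of the other CpG-rich promoters. At Tenm3 that start lay 118651 bp away and was at 3.26% and 4.28% in the P60 eYFP- and eYFP+ pools. Ankrd50 was at 91.8% and 91.2% at its canonical start and at 0.533% and 0.802% at a start 29258 bp away. Noct, a circadian deadenylase-family gene, was at 94.6% and 88.1% against 3.47% and 4.06% at 15709 bp. Its canonical window had the fewest reads of any member in each pool, with 388 and 472 at P60. Lrfn1, a synaptic adhesion protein, was at 87.8% and 87.8% against 0.988% and 1.07% at 6420 bp. Brdt, a testis bromodomain protein, was at 86.4% and 89.3% against 3.76% and 3.83% at 28679 bp. Nsd1, a histone methyltransferase, had starts 1794 bp apart at 87.7% and 86.6% and at 3.12% and 2.61%, and its methylated start rose from 67.1% and 68.4% at P2.

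Imprinted promoters were set apart by how even their CpGs were. Of 38 CpG-rich promoters on the imprinted list, 13 (34.2%) were members, and 11 of the 13 were between 40% and 60% at P60. The 13 had a median of 48.3% at P2 and 47.9% at P60, and the list's CpG-rich promoters that were not members had a median of 2.75% at P60 and a highest level of 21.3%. The SD among the CpGs of a window at P2, which is low where neighbouring CpGs have like levels, had a median of 7.82 points in these 11 and of 23.6 points in the 68 other members of the same class. Peg3, a zinc finger gene, was at 49.0% and 49.4% in the P2 eYFP- and eYFP+ pools and 50.3% and 45.5% at P60, with an SD of 5.51 points. Nnat, a small membrane protein, was at 44.2%, 46.2%, 49.9% and 50.3%, with an SD of 5.21 points. Igf2r, the receptor that clears IGF2, was at 39.2%, 38.6%, 43.4% and 43.7% over 100 CpGs. Nap1l5 (61.3% and 60.8% at P60) was the highest of the 13 and Mkrn3, named for this alone, was the lowest, with a mean of 26.4%. Gnas, which encodes a stimulatory G protein subunit, was at 51.8%, 48.7%, 54.7% and 52.2%, and another start of this gene, 32147 bp away, was at 0.968% and 0.913% at P60. None of the 13 was called higher or lower at P60 in either subtype, and their changes ran from -4.05 to 5.86 points in eYFP- cells and from -4.15 to 8.50 points in eYFP+ cells.

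Outside the list, 3 members with a P2 mean between 35% and 65% had an equally low SD, under 9 points, and are named after their values were seen. They were Snurf (SD 4.42 points), Gm38393, which starts 15 bp from it (4.49 points), and Gm73394 (8.78 points). Snurf, which lies at an imprinted locus, was at 45.4% and 49.0% at P2 and 42.2% and 44.0% at P60.

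**Figure D2:**
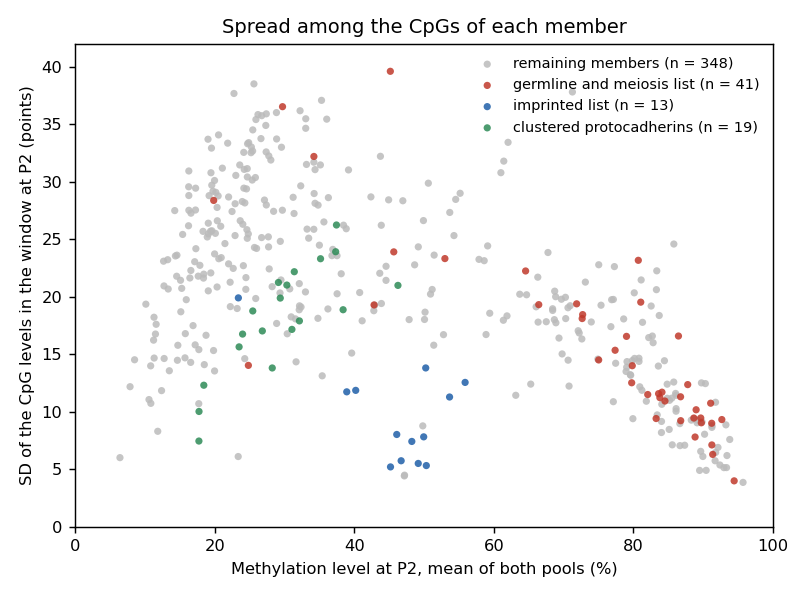
SD of the levels of single CpGs in the window at P2 (y axis, percentage points) against the methylation level of the window at P2 (x axis, %), for the 421 members. Imprinted genes lie at the bottom of the middle of the plot, with a median SD of 8.03 points, while the 68 other members between 40% and 60% at P60 have a median of 23.6 points.

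Clustered protocadherins, cell-surface proteins that neurons express in random combinations, were methylated at a low level. Of 28 CpG-rich promoters of the clusters, 19 (67.9%) were members, all on chromosome 18, and the 19 had a median of 29.4% at P2 and 27.2% at P60. Pcdha8 was the highest at P2, at 49.2% and 43.3% in the eYFP- and eYFP+ pools, and was at 47.2% and 50% at P60. Pcdha2 was at 34.9% and 35.4% at P2 and 29.2% and 30.4% at P60, and Pcdhgb8 at 37.8% and 37.1% and then 46.4% and 47.0%. No member of the clusters passed the call in either direction in either subtype. The 9 protocadherin promoters that were not members had a median of 17.7% at P60, far above the 1.27% of the other CpG-rich promoters, so the 20% threshold cut through the clusters. Each of the 19 had an HMR in its window in at least 1 P2 library.

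The shape around the start differed between these groups. In the other CpG-rich promoters the mean level fell from 67.7% in the bin 1901 to 2000 bp upstream to 1.19% in the 100 bp after the start at P2. The germline members showed little such dip, with 71.3% and 70.7% in the same bins. Imprinted members fell from 55.5% to 45.5%, protocadherins from 61.5% to 28.8%, and the remaining 348 members from 68.1% to 41.2%. The last group was at 68.1% upstream but still at 58.7% in the bin 201 to 300 bp before the start, where the other CpG-rich promoters were at 8.12%.

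**Figure D3:**
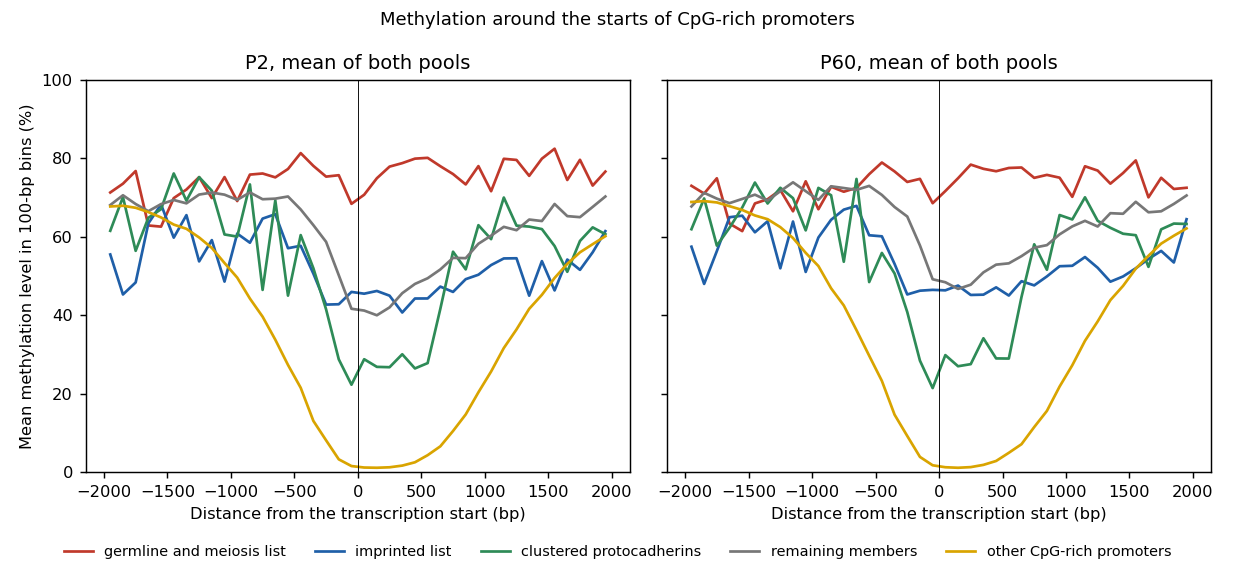
Mean methylation level in 100-bp bins (y axis, %) by distance from the transcription start along the strand of the gene (x axis, bp), at P2 (left) and P60 (right), each the mean of both pools. The other CpG-rich promoters reach nearly 0 at the start, the protocadherins and the remaining members dip in part, and the germline members stay near 70% or above around the start.

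Methylation lay more often before the start than after it. At P2 the upstream part of the window had a median of 56.0% over the members and the downstream part 38.2%. In 131 members (31.1%) the upstream part was higher by at least 20 points, and in 44 (10.5%) the downstream part was. In the other CpG-rich promoters the shares were 10.1% and 0.317%, so more methylation upstream was not particular to the members. It was seen in the members of lower level. Of the 179 members between 20% and 40% at P60, 96 (53.6%) were higher upstream by at least 20 points, with medians of 39.7% upstream and 12.5% downstream. Of the 79 between 40% and 60%, 29 (36.7%) were higher upstream and 9 downstream. The classes above ran the other way, with 5 upstream and 11 downstream of 77 between 60% and 80%, and 1 and 8 of the 86 at 80% or more.

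Most members were already methylated at P2. There, 334 of the 421 (79.3%) were at 20% or more in both pools, and they made up 96.3% of the 347 CpG-rich promoters that reached 20% in both P2 pools. Another 61 members were under 20% in both P2 pools, and 3 were under 10%. Levels were higher at P60 than at P2 in both subtypes in 235 members (55.8%) and lower in both in 93 (22.1%), with a median change of 2.54 points. A promoter was called where a Fisher's exact test on the reads of the pair of pools gave p under 0.05 after Benjamini-Hochberg adjustment over the 12399 CpG-rich promoters and the levels differed by at least 10 points. In eYFP- cells 87 members were called higher at P60 (0.807% of all CpG-rich promoters were) and 3 lower (0.0323% of all). In eYFP+ cells 83 were called higher (0.798% of all) and 2 lower (0.0242% of all). The P60 levels chose the members, so these counts carry no test. Among the 347 promoters at 20% or more in both P2 pools, chosen by the other end of the same contrast, 50 were called higher and 3 lower in eYFP- cells, and 50 higher and 2 lower in eYFP+ cells.

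The 70 members called higher in both subtypes went from a median of 25.1% at P2 to 44.4% at P60, by 10.9 to 46.2 points. None was on the germline, imprinted or protocadherin list, which together hold 73 members, and none of the members on these 3 lists was called higher in either subtype. The germline members, 41 of the 73, had a P2 median of 82.1%, and whether such levels limit a rise of 10 points was not tested. The imprinted and protocadherin members had P2 medians of 48.3% and 29.4%. Tmem154, a membrane protein gene, went from 17.3% and 18.2% in the P2 eYFP- and eYFP+ pools to 64.3% and 63.6% at P60. Mpst, an enzyme of sulfur metabolism, went from 19.3% and 16.2% to 60.3% and 60.1%, while another start 3154 bp away was at 2.41% and 2.27% at P60. Krt19, the keratin of duct cells, went from 22.8% and 21.2% to 56.7% and 52.5%. These genes were named for the size of their rise, so P2 and P60 pools that lie apart in level are part of that choice. Hoatz, a gene of cilia and flagella, went from 28.4% and 25.9% to 64.0% and 58.6%. Grip2, a synaptic scaffold, went from 32.0% and 34.0% to 67.3% and 63.3%, and Crb2, a cell polarity protein, from 33.9% and 28.1% to 62.6% and 60.8%. Further members called higher in both subtypes, named after their values were seen, were Mdk (midkine), Rassf1 and Slc2a10.

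Falls were smaller. No member was called lower in both subtypes. Tescl, a single-exon gene, fell the most, from 53.0% and 49.8% in the P2 eYFP- and eYFP+ pools to 41.3% and 40.4% at P60. Calhm6, a member of the calcium homeostasis modulator family, was at 39.8% and 32.4% and then at 25.5% and 25.8%, and Gpr62, an orphan receptor, at 34.3% and 28.2% and then 21.9% and 23.7%. These 3 were called lower in eYFP- cells. For Calhm6 and Gpr62 the P2 pools also differed from each other by 6 to 8 points. Uba52rt (74.0%, 72.2%, 66.6% and 62.9%), Ccdc73 (84.4%, 83.8%, 76.5% and 75.2%) and Ccer1 (74.5%, 79.1%, 66.6% and 70.9%) followed and were not called.

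**Figure D4:**
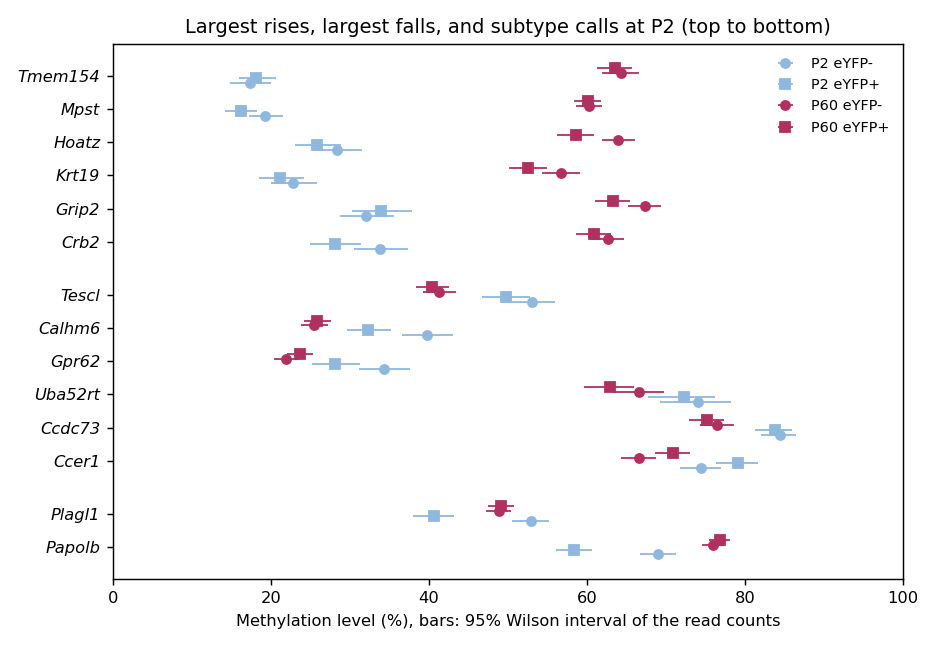
Methylation level (x axis, %) in the 4 pools of the 6 members with the largest rise, the 6 with the largest fall and the 2 called between subtypes at P2, with 95% Wilson intervals that cover counting error only. The rises were chosen by size, so their P60 pools lie to the right of the P2 pools. For Plagl1 and Papolb the eYFP+ pool lies left of the eYFP- pool at P2 but not at P60.

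The subtypes differed little at P2, whose pools the rule used for their CpGs and reads but not for their levels. Over the 421 members the median difference of eYFP+ from eYFP- was 0.323 points, and the median size of the difference was 2.00 points against 0.370 points in the other CpG-rich promoters, which sit near 0. At P2, 2 promoters passed the call, 0.0161% of all CpG-rich promoters, and both were members. Plagl1, an imprinted zinc finger gene (chr10:12965909-12966909), was at 52.9% in the eYFP- pool (95% Wilson interval 50.5% to 55.3%, 1655 reads) and 40.6% in the eYFP+ pool (38.0% to 43.2%, 1402 reads), with a Fisher's exact adjusted p of 4.01e-08. Papolb, a testis poly(A) polymerase gene (chr5:142515331-142516331), was at 69.1% (66.7% to 71.3%) and 58.4% (56.2% to 60.6%), with a Fisher's exact adjusted p of 1.84e-07. Both were lower in eYFP+ cells, and at P60 the pools of each were within 1 point. For Plagl1 both P2 eYFP+ libraries and neither P2 eYFP- library had an HMR in the window. For Papolb 1 P2 eYFP+ library and no P2 eYFP- library did. These HMRs were called from reads that were also summed into the pools, so they are not separate support for the calls. With no minimum difference 18 members (4.28%) and 132 of all 12399 promoters (1.06%) had an adjusted p under 0.05, among them Mest, an imprinted gene that was higher in eYFP+ cells (45.6% and 54.3% in the eYFP- and eYFP+ pools). These tests compare pools of reads, and the spread between mice is not in them. They also take counts at neighbouring CpGs as independent, though these can come from the same read. Where such counts are alike, the p-values are too small and the intervals too narrow. In counts simulated at the depth of the P2 pools over 12399 promoters, 50 of 50 members changed by 15 points were called. Of those changed by 10 points, the smallest difference a call allows, 27 of 50 were. The simulated counts were drawn as independent at every CpG and held no spread between mice. Reads counted at several CpGs were thus not simulated, and recovery in the real counts may be poorer. At P60, where the levels chose the members, 2 members were called between subtypes (0.0161% of all). They were Lhcgr, the luteinizing hormone receptor gene, at 60.7% in eYFP- and 50.7% in eYFP+ cells, and Chp2, a calcineurin-like protein gene, at 45.7% and 35.5%, named after their values were seen.

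HMRs called in single libraries gave a readout with replicates. At P2 58.4% to 59.6% of members had an HMR overlapping the window, and at P60 47.0% to 49.4%, while 100% of the other CpG-rich promoters did in each of the 12 libraries. The P60 HMRs come from the libraries whose pooled reads chose the members. The lower share at P60 and the contrast with the other promoters are thus a description and carry no test. The number of autosomal HMRs was also lower at P60, 37067 to 48399 per library against 55619 to 59870, and its part in the lower share of members was not tested. The subtypes overlapped. At P60 eYFP+ libraries had 48.6% ± 0.917 (SD, n = 4) and eYFP- libraries 48.2% ± 1.31 (SD, n = 4), which differed by 0.475 points (exact permutation test over libraries, two-sided, p = 0.829). At P2 they had 59.0% ± 0.840 and 59.1% ± 0.672 (SD, n = 2 for either), for which the smallest p an exact permutation test allows is 0.333. The start itself lay in an HMR in 37.3% to 40.9% of members at P2 and 22.6% to 24.9% at P60.

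The libraries were in accord on most members. At P2 230 members had an HMR in all 4 libraries and 156 in none, and at P60 170 had one in all 8 and 182 in none. There were 16 members with an HMR in all 4 P2 and no P60 library. Of these, 15 were among the 70 called higher in both subtypes, a call that rests on the same reads. They included Tmem154, Mpst, Hoatz, Grip2 and Crb2. No member had an HMR in no P2 library and in all 8 P60 libraries, which the choice by P60 level makes unlikely. Even a member between 20% and 40% could overlap an HMR, and each of the 179 in that class did in at least 1 P2 library.

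**Figure D5:**
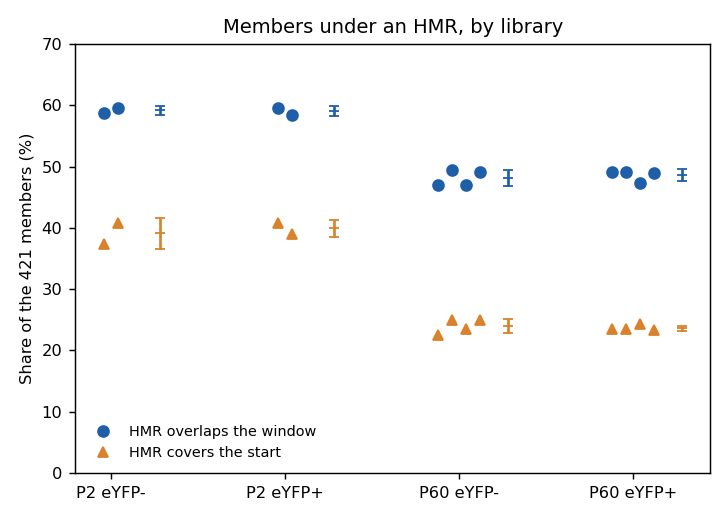
Share of the 421 members (y axis, %) with an HMR overlapping the window (circles) or covering the start (triangles) in each of the 12 libraries by group (x axis), with the mean and SD of each group beside its points. The P60 libraries, at 47.0% to 49.4% for circles, lie below the P2 libraries, at 58.4% to 59.6%, and the subtypes overlap at each age. The members were chosen by their P60 levels, so the difference between ages is a description.

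Motif counts in the 200 bases before the start were compared with those of all CpG-rich promoters, searching both strands. CACGTG, an E-box, was present in 13 of 41 germline members (31.7%) and in 7.35% of all 12399. TGCCGC, the core recognized by the imprint-protecting factor ZFP57, was present in 6 of 13 imprinted members (46.2%) and in 11.1% of all, and Nap1l5 held it at 2 places. TCCCGC, an E2F core, was present in 14 germline members (34.1%), in 71 of the 421 members (16.9%) and in 25.7% of all. None of the 3 was found in these bases of the 19 protocadherins. A match gives only the letters of the reference.

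The lists of zinc finger genes and of developmental transcription factors, which are numerous among CpG-rich promoters, held few members. These lists do not hold every such gene. Members outside them include the zinc finger genes Peg3 and Plagl1 and the transcription factor gene Lyl1. Of 280 CpG-rich genes on the zinc finger list 4 were members (1.43%, against 3.40% of all CpG-rich promoters), with a median of 32.1% at P60. Of 105 on the list of developmental transcription factor genes 2 were (1.90%), and with so few the difference from 3.40% was not tested. Pax5, the B-cell regulator, was at 22.6% and 23.3% in the P2 eYFP- and eYFP+ pools and 27.6% and 32.1% at P60, and Tbx4, a limb factor, at 33.4% and 35.1% and then 42.6% and 45.7%. Of the markers of other pancreatic cells, Krt19 is described above, and Pdgfrb, a receptor of pericytes and fibroblasts, was at 43.4% and 34.3% at P2 and 37.4% and 41.9% at P60. In all 81 members were on at least 1 list and 340 on none.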

How the data were processed

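Tagmentation-based whole-genome bisulfite libraries were made from DNA of sorted cells. The submitters' processing notes name Trim Galore 0.6.6, cutadapt 1.16, FastQC, SAMtools 1.5 and build mm39. The authors deposited, for each age, a table of CpGs with methylated and unmethylated read counts summed over the libraries of each subtype, and HMR lists per library and per pool, whose positions alone were used. Their lists of differentially methylated regions hold the authors' own comparisons and were not used.

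Here, counts were summed over windows of 500 bp to each side of canonical starts in GENCODE M39. All listed CpGs of chromosome 19 lie on a CG of the mm39 genome used. Reads of 2 pools were tested per window by Fisher's exact test, two-sided, and p-values adjusted by Benjamini-Hochberg over all CpG-rich promoters (Python 3.11.15, scipy 1.17.1), and HMR shares with exact permutation tests over libraries. Fisher's exact test was tested on data simulated for the P2 pools, and no other test was. SDs among CpGs used CpGs with at least 10 reads. Same-numbered P60 libraries share a sex label and a file-name code. Their deviations correlated at 0.147, 0.197, 0.296 and 0.135 over 65638 HMRs. Libraries of unlike number were not compared, so these values do not show that the numbers pair the libraries. At P2 n is too small for this check. Libraries are pools of mice. Each group holds libraries of both sex labels, so the spread within it includes any difference between the sexes. Nothing says that replicates of like sex label are separate cohorts, so the spread between those may be technical.

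The members, gene lists, named genes and tests were chosen with earlier results of these data known. Named were list members (at most 12 per list, by P2 level), the 8 highest at P60, the 6 largest rises and falls, calls between subtypes at P2, the nearest to the threshold (1 of these is not reported here), and 6 with another unmethylated start. Lists of keratin, retrocopy, endothelial, blood cell and eye genes were written after values were seen and get no test. Intervals are 95% Wilson intervals that take all counts in a window as independent. Alternatives in the read minimum, CpG number, window, level and call are given in the closing section.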

Additional observations from a re-analysis of the deposited data

Results flagged for a closer look

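Among the 4 P60 eYFP+ libraries, the share of members overlapping an HMR was lowest in replicate 3 (47.3%), and its gap to the next library was 0.875 of the range of the group. Chance flags about 1 in 20 groups.

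The change from P2 to P60 differed between subtypes for 8 of the named members, by a test of the difference of the log odds on pooled reads, adjusted over 12399 promoters and added after the data were seen. In this test, which also takes counts at neighbouring CpGs as independent, 147 promoters had an adjusted p under 0.05, 24 of them members. The change in eYFP+ cells minus that in eYFP- cells was 12.6 points for Plagl1, 11.5 points for Papolb, 13.6 points for Pdgfrb, 12.5 points for Pcdha6, 8.32 points for Mcts2, 8.56 points for Plvap, 7.31 points for Gp1bb and -12.4 points for Noct. Noct had the fewest reads of any member in each pool, with 206 and 228 in the P2 eYFP- and eYFP+ pools. In the 7 members with a positive value the eYFP+ pool was the lower at P2, and in 6 of them, all but Pcdha6, the P60 pools lay within 5 points of each other. The P2 eYFP- libraries are those whose X chromosomes went against their sex labels, and their part in these differences was not tested.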

How the results depend on the processing

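The number of members was 160 with over 40 CpGs required, of which 127 were at 20% or more in both P2 pools. The median member holds 38 CpGs. It stayed within 1.5 times of 421 under the other rules (294 to 528), and the share at 20% or more in both P2 pools was 78.9% to 81.6% in each. With a window of 250 bp and over 15 CpGs, 290 of the 528 were among the 421. With no minimum difference, members called numbered 18 between subtypes at P2, 27 at P60, 218 between ages in eYFP- cells and 210 in eYFP+ cells, against 2, 2, 90 and 85. The shares of all CpG-rich promoters called in this way were 1.06%, 1.94%, 13.9% and 15.7%. With at least 500 reads they were 2, 2, 89 and 85. The difference in HMR share (eYFP+ minus eYFP-) was reversed where the HMR had to cover the start, to -0.356 points at P60 (exact permutation p = 0.743) and 0.831 points at P2. Leaving out each library gave 0.0990 to 0.930 points at P60 and -0.713 to 0.475 points at P2, where it was reversed to 0.475 without eYFP+ replicate 2 and to 0.356 without eYFP- replicate 2. The replicate block gave a sign-flip exact permutation p of 0.875 at P60, and 1 at P2, where pairs crossed after the X chromosomes were seen gave the same difference of -0.119 points. Within each file-name code the P60 difference was 0.950 points (replicates 1 and 2) and 0 points (replicates 3 and 4).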

Other observations

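Further groups of genes used in other tissues were gathered into lists after the values were seen, so their counts carry no test. Of all CpG-rich promoters 3.40% were members. Krt19 and Pax5 were also on a list of the report. Of 18 CpG-rich promoters on a list of blood cell genes 14 were members, with a median of 26.5% at P2 and 38.5% at P60. Of these 14, 5 were called higher at P60 in eYFP- and 3 in eYFP+ cells. The shares called higher were 20.7% and 19.7% of all members, and 0.807% and 0.798% of all CpG-rich promoters. Fes, a myeloid tyrosine kinase, went from 26.7% and 28.7% in the P2 eYFP- and eYFP+ pools to 45.0% and 44.5% at P60. Lyl1, a transcription factor of blood stem cells, went from 20.3% and 20.4% to 32.4% and 32.0%, and Gp1bb, a platelet glycoprotein, from 34.7% and 28.1% to 50.1% and 50.8%. Bin2, at 89.8% and 89.2%, and Osm, a cytokine, at 80.4% and 81.2%, were high already at P2. Of 12 CpG-rich promoters of endothelial genes 5 were members. Esam, an adhesion protein, went from 18.4% and 16.03% to 43.3% and 41.7%, and Cldn5, a tight junction protein, from 27.8% and 29.1% to 43.2% and 46.1%. Eng, a TGF-beta co-receptor, was at 70.03% and 70.5% at P2 and 72.1% and 73.4% at P60. Plvap was at 71.3% and 65.6%, then 62.9% and 65.7%.

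Of 12 CpG-rich keratin genes 8 were members, with a median of 80.5% at P60, and Krt19 was the lone keratin called higher. Krt72 was at 86.4% and 88.3% at P2 and Krt81 at 87.0% and 85.2%. Of 10 CpG-rich genes of the eye 8 were members. Gucy2e, a guanylate cyclase of photoreceptors, went from 43.9% and 46.0% in the P2 eYFP- and eYFP+ pools to 71.5% and 72.9% at P60. Of 15 CpG-rich gene copies named with the suffix rt, 5 were members, with a median of 84.4% at P60. Single members of interest to this tissue were Cfap126 (also known as Flattop, a proposed marker of beta-cell heterogeneity), at 25.9% and 22.5% at P2 and 26.3% and 26.1% at P60, and Tet1, an enzyme that oxidizes methylcytosine, whose canonical start was at 92.7% and 92.1% and then 90.9% and 89.7%. The hormone genes Pomc (36.9%, 34.4%, 36.5% and 37.8%) and Oxt (36.1%, 32.7%, 38.1% and 33.7%) differed little between the 4 pools.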
